A study of Mus musculus with 16 samples.

Results

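The 33 genes described here encode enzymes of cholesterol and fatty acid synthesis, proteins that regulate these pathways and a sterol carrier. They are listed by name, and the list was drawn up with earlier results of these data known. Of the 33, 32 were measured among 18194 genes in all. Acat2, a cytosolic acetyl-CoA thiolase, was not analysed here because no probe set was matched to that symbol alone. The measured genes were 6 enzymes of the mevalonate steps, 11 enzymes that lead from squalene to cholesterol, 5 regulators, the sterol carrier Stard4, 3 enzymes of fatty acid synthesis and 6 enzymes of desaturation and elongation.

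RNA came from sorted peritoneal cells of female C57BL/6N mice, labelled as tumour-associated macrophages, and was hybridised to 16 Affymetrix mouse arrays, 4 in each of 4 groups: CCR2+ control, CCR2+ RbpjiΔEC, CCR2- control and CCR2- RbpjiΔEC. The study addresses endothelial Rbpj, and RbpjiΔEC is its name for the mice without the gene in endothelial cells. Rbpj is the nuclear factor through which Notch receptors act on genes. The same protocol is listed for all groups: 1 mg tamoxifen by gavage at 8 to 12 weeks of age, ID8-luc mouse ovarian cancer cells into the peritoneal cavity 3 weeks later, and 4 weeks of growth. Cells were sorted as CD45+ CD11b+ F4/80+ and split by CCR2, which guides monocytes out of the blood. The Cre line of the RbpjiΔEC mice and the genotype of the control mice are not given in the sources used here, and the labels do not say whether each array is a separate animal. The p-values then measure the spread between these arrays, and that spread may be technical.

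Cells make cholesterol from acetyl-CoA through mevalonate and squalene, and fatty acids from the same acetyl-CoA through malonyl-CoA. Both sets of enzymes are known targets of the SREBP transcription factors, which the escort protein SCAP carries out of the endoplasmic reticulum when sterols are low and which INSIG proteins hold back when sterols are plentiful. Macrophages also take up and release sterols, and stearoyl-CoA desaturases turn their saturated fatty acids into oleate and palmitoleate.

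A sequence feature that the choice of the list did not use was more frequent in the matched start regions than among all genes. RefSeq promoters on GRCm38.p6, from 250 bases before to 50 bases after an annotated start, were matched for 26 of the 33 genes. The letters CCAAT, the core of the box bound by the factor NF-Y, were searched on both strands. They lay in at least 1 promoter of 21 of the 26 genes (80.8%), against 41.1% of all 27025 genes with a promoter. Among the enzymes of sterol synthesis 14 of 14 held them, and among the fatty acid enzymes 3 of 6. Counted promoter by promoter, the letters were in 22 of 34 windows (64.7%), against 37.4% of all windows. The letters CACGTG, a symmetric E-box, were in 6 of the 26 genes (23.1%), against 8.09% of all genes. TCACNCCAC, a spelling of the sterol regulatory element, was found on either strand in 1 of the 26 genes (3.85%), against 1.44% of all genes. That gene is Hmgcs1. These are counts of letters, with base composition not matched, and say nothing of binding.

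Upstream stretches of 6 genes follow, because 3 of them (Mvd, Msmo1 and Insig1) were higher in the arrays labelled CCR2+ and the other three were lower there, at least in RbpjiΔEC mice. Each is 5′ to 3′ on the strand of the gene, in lower case, with CCAAT or its reverse complement ATTGG in capitals and, in Hmgcs1 only, the run TCACCCCAC in capitals too. The stretches were cut around these letters, so their presence before genes of both directions follows from the choice. The positions on GRCm38.p6 are chr13:119690101-119690325 on the plus strand for Hmgcs1, chr8:122443430-122443497 on the minus strand for Mvd, chr8:64733614-64733753 on the minus strand for Msmo1, chr5:4104707-4104741 on the minus strand for Cyp51, chr5:28071181-28071215 on the plus strand for Insig1 and chr15:82147119-82147153 on the plus strand for Srebf2.
Hmgcs1: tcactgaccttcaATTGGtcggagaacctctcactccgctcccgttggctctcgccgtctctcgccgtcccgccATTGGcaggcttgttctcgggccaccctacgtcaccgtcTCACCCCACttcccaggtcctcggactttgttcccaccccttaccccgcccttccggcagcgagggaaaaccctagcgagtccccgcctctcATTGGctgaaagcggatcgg
Mvd: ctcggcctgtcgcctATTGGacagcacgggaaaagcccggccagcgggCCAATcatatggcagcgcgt
Msmo1: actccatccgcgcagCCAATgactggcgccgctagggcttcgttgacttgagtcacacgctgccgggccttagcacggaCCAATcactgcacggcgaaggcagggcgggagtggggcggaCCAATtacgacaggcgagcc
Cyp51: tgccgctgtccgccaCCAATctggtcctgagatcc
Insig1: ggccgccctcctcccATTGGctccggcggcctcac
Srebf2: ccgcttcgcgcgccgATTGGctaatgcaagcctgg

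The labels were first set against marker genes. A level here is the log2 of the deposited intensity after quantile normalization over the 16 arrays, a difference is between mean levels, and 1 unit is a 2-fold difference. Ccr2 itself stood at 7.99 ± 1.05 (SD, n = 4) in the CCR2+ control arrays and at 9.99 ± 1.08 in the CCR2- control arrays, a difference against the label (limma adjusted p = 0.018). In RbpjiΔEC mice it stood at 7.69 ± 0.47 and 8.94 ± 1.32, which was not called (adjusted p = 0.14). CCR2+ and CCR2- therefore name the deposited labels only. The gene of F4/80, Adgre1, was at 13.25 ± 0.14 in the CCR2+ control arrays and at 9.21 ± 0.24 in the CCR2- control arrays. In control mice all 10 measured macrophage markers (Msr1 and Marco by the largest difference) and all 12 markers of large peritoneal macrophages (Tgfb2 and Ltbp1) were higher in the CCR2+ arrays. The mean of the macrophage markers spanned 12.59 to 12.70 over the CCR2+ control arrays and 8.55 to 9.16 over the CCR2- control arrays. All 12 measured B cell markers (Fcrla and Ms4a1) were lower there: the mean of the list ran from 7.56 to 7.78 in the CCR2+ control arrays and from 12.55 to 12.57 in the CCR2- control arrays. The markers of the CCR2- arrays thus go against the label macrophage, and that label is used here only as the name of the group. Of the other lists, 2 of 9 T and NK cell markers (Cd2, Cd3g), 6 of 8 dendritic cell markers (Dpp4, Ccr7), 3 of 11 tumour and mesothelial markers (Epcam, Krt8 and Pax8, while Krt7 was higher), 2 of 9 mast cell and eosinophil markers (Kit among them, while Siglecf was higher) and 1 of 9 endothelial and fibroblast markers (Pecam1) were lower. Csf3r, 1 of 8 neutrophil markers, was higher. Pax8 and Krt7 are named after their values were seen. In bulk RNA fewer cells of a type and less RNA per cell cannot be told apart, and the part of these cell types in the differences of the lipid genes was not tested. Label and type of deposited column also go together. The mean deposited intensity spanned 821 to 827 over the CCR2+ arrays but 481 to 762 over the CCR2- arrays, and 100% of the values of each CCR2- array were whole numbers after multiplication by an integer of at most 22 (tolerance 0.001), against 2.58% to 2.91% in the CCR2+ arrays, so label and kind of column cannot be told apart. Every level of the 32 genes, the lowest being 7.08, was above the bacterial trp control probe sets, which reached at most 6.72. That does not show that the lowest levels are signal. The B cell genes Cd79a and Ms4a1 stood at 7.65 and 7.09 in the CCR2+ control arrays, and Gata6 at 7.77 in the CCR2- control arrays. Scd1 in the CCR2+ arrays, Fdps, Elovl6, Fads1 and Fads2, among others, had readings as low. Differences that involve such readings may be lower bounds.

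Between the labels, the 32 genes did not move as a block. In control mice, at a limma adjusted p under 0.05, 7 of the 32 stood higher under the label CCR2+ and 7 stood lower, beside a background of 40.8% of all 18194 genes called (19.4% higher and 21.4% lower). In RbpjiΔEC mice 7 were higher and 10 lower, where 39.1% of all genes were called (18.1% higher and 21.0% lower). That is 43.8% of the members in control mice, near the background, and 53.1% in RbpjiΔEC mice, above it, where 21.9% were higher and 31.2% lower. The RbpjiΔEC count ran from 14 to 20 over the alternatives, and whether the share differs from the background was not tested. The median difference of the members was -0.03 in control mice and -0.18 in RbpjiΔEC mice, against -0.03 in both for all genes. All 14 genes called in control mice were called in the same direction in RbpjiΔEC mice. The split moved with the scaling: it was 9 higher and 6 lower in control mice and 9 and 7 in RbpjiΔEC mice with median centring, and 10 and 4 in both without normalization between arrays. With each gene taken as the average over its probe sets it was 7 and 7 in both.

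**Figure D1:**
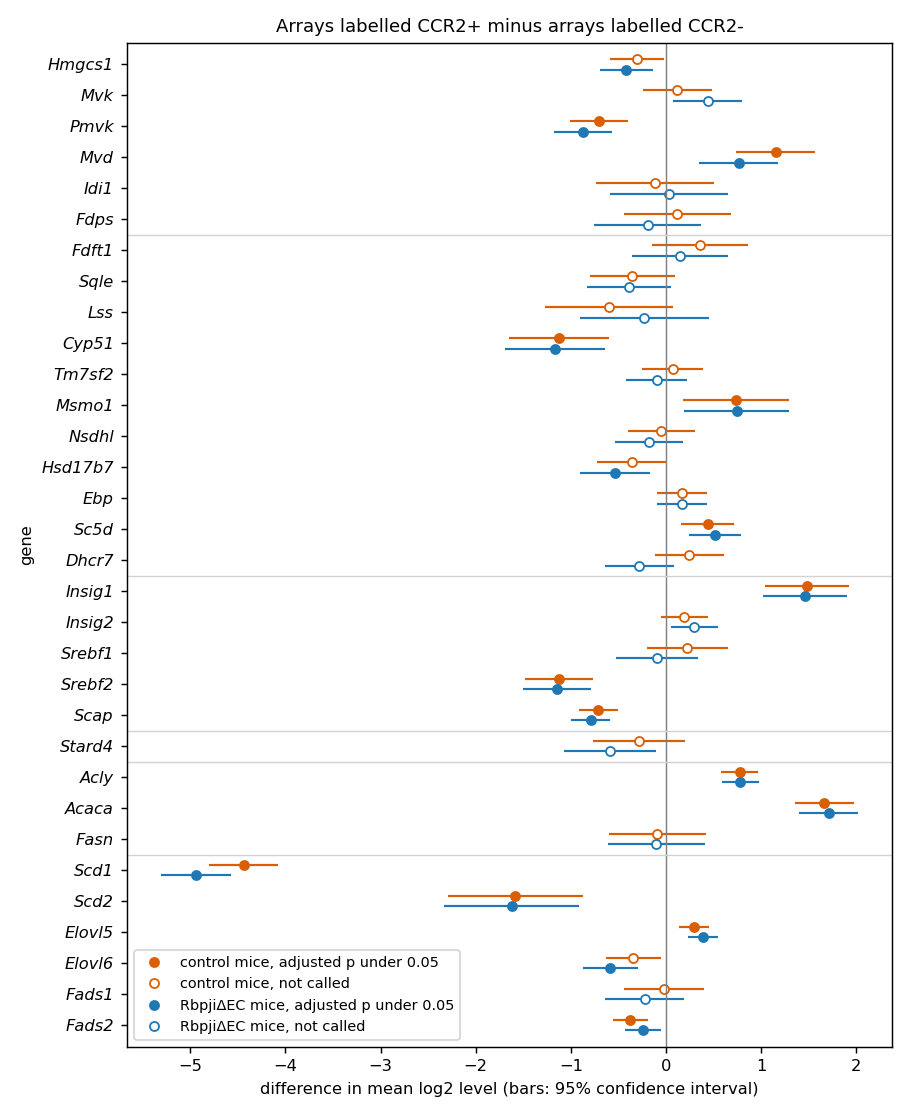
Difference in mean log2 level between the arrays labelled CCR2+ and CCR2- (horizontal axis) for the 32 genes (vertical axis), in control mice (orange) and RbpjiΔEC mice (blue), 4 arrays per group. Points are limma estimates, bars are 95% confidence intervals, filled points have an adjusted p under 0.05, and grey lines part the functional groups. Scd1 lies far to the left at -4.44 and -4.94, while Acaca, Insig1, Mvd and Acly lie to the right.

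The mevalonate enzymes parted in both directions. Mvd, the decarboxylase that makes isopentenyl diphosphate, read 9.69, 9.51, 9.58 and 10.37 on the 4 CCR2+ control arrays and 8.77, 8.44, 8.49 and 8.83 on the CCR2- control arrays. All 4 of the first group lay above all 4 of the second, by 1.15 on average (SE 0.20, adjusted p = 0.00015). In RbpjiΔEC mice the values were 8.81, 9.38, 9.77 and 9.25 against 8.64, 8.44, 8.69 and 8.37, again without overlap, and the difference was 0.77 (SE 0.20, adjusted p = 0.0050). The second Mvd probe set gave 0.88 and 0.65, each at the smallest p that an exact permutation test of 4 against 4 arrays allows, 0.029, two-sided. Pmvk, the kinase that acts just before Mvd, went the other way. Its levels were 9.29, 9.25, 9.16 and 9.81 in the CCR2+ control arrays and 9.77, 10.11, 10.08 and 10.38 in the CCR2- control arrays, which overlap by 1 array of each group. The difference was -0.71 (SE 0.14, adjusted p = 0.00081) in control mice and -0.87 (SE 0.14, adjusted p = 0.00012) in RbpjiΔEC mice, where the groups did not overlap. With median centring the Pmvk difference of control mice shrank to -0.39 and was no longer called (adjusted p = 0.13). Without normalization between arrays neither genotype was called, at -0.34 (adjusted p = 0.23) in control mice and -0.36 (adjusted p = 0.18) in RbpjiΔEC mice.

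Hmgcs1, the synthase that feeds the pathway and whose upstream sequence carries the TCACCCCAC run, was lower under the label CCR2+ in RbpjiΔEC mice. Those arrays read 9.77, 9.79, 10.02 and 9.71, all below the CCR2- readings of 10.36, 10.13, 10.21 and 10.26, and the difference was -0.41 (SE 0.13, adjusted p = 0.021). In control mice it was -0.30 (SE 0.13) and not called (adjusted p = 0.085). The call depended on the processing: without normalization between arrays the RbpjiΔEC difference became 0.14, with median centring -0.15 and with the average over probe sets -0.18. It was not called without CCR2+ RbpjiΔEC 4 (-0.38) or CCR2- RbpjiΔEC 1 (-0.38), and of the 4 other probe sets of Hmgcs1 3 gave differences between -0.31 and -0.10 while the fourth gave 0.12. In control mice it was called without CCR2+ control 4 (-0.40, adjusted p = 0.029) or CCR2- control 2 (-0.43, adjusted p = 0.0092). Mvk, mevalonate kinase, Idi1, the isomerase of isopentenyl diphosphate, and Fdps, which makes farnesyl diphosphate, were not called in either genotype, with differences of 0.12 and 0.44, -0.11 and 0.03, and 0.12 and -0.19 in control and RbpjiΔEC mice. The 95% interval of Idi1 ran from -0.73 to 0.51 in control mice. Mvk in RbpjiΔEC mice was called under 11 of the 27 alternatives, at 0.57 (adjusted p = 0.0041) with median centring and 0.86 (adjusted p = 0.00027) without normalization, though its other probe set gave -0.02.

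Of the 11 enzymes from squalene to cholesterol, the label CCR2+ went with a higher level in 2 and a lower one in 1 in control mice, and with 2 higher and 2 lower in RbpjiΔEC mice. The lower one in both was Cyp51, the lanosterol 14-alpha-demethylase. It read 8.62, 9.24, 9.04 and 9.67 on the CCR2+ control arrays and 10.74, 9.76, 10.24 and 10.33 on the CCR2- control arrays. The 2 groups did not overlap and differed by -1.12 (SE 0.25, adjusted p = 0.0015), a 2.18-fold lower level in the CCR2+ arrays. RbpjiΔEC mice gave 9.09, 8.54, 9.58 and 9.12 against 10.60, 10.33, 9.99 and 10.08, a difference of -1.17 (SE 0.25, adjusted p = 0.0011). Both other probe sets of Cyp51 gave -1.07 or less in both genotypes (exact permutation p = 0.029 each).

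Msmo1, the oxidase that starts the removal of the C4 methyl groups after the Cyp51 step, had the opposite direction. CCR2+ control arrays read 9.54, 10.02, 10.03 and 10.62 and CCR2- control arrays 9.51, 8.91, 9.20 and 9.66, which overlap by 1 array of each group. The difference was 0.73 (SE 0.26, adjusted p = 0.034) in control mice and 0.74 (SE 0.26, adjusted p = 0.033) in RbpjiΔEC mice. This call did not hold when single arrays were left out. In control mice it was lost without CCR2+ control 2, 3 or 4 or CCR2- control 2 or 3, down to 0.54 (adjusted p = 0.12) without CCR2+ control 4. In RbpjiΔEC mice it was lost when either CCR2+ RbpjiΔEC 3 or 4 was dropped, or any of CCR2- RbpjiΔEC 1, 2 and 3, down to 0.51 (adjusted p = 0.12) without CCR2+ RbpjiΔEC 3. The second Msmo1 probe set gave 0.80 and 0.68. Sc5d, the lathosterol desaturase near the end of the pathway, exceeded its CCR2- level by 0.44 (SE 0.13, adjusted p = 0.012) in control mice, with arrays at 9.25, 9.22, 9.09 and 8.90 against 8.85, 8.72, 8.29 and 8.85, and by 0.52 (SE 0.13, adjusted p = 0.0043) in RbpjiΔEC mice. Without CCR2- control arrays 1 and 3 the Sc5d difference of control mice was 0.33 and not called (adjusted p = 0.074). Its 2 other probe sets gave 0.99 and 0.32 in control mice and 0.87 and 0.03 in RbpjiΔEC mice. Hsd17b7, the 3-keto reductase of the C4 demethylation, had a difference of -0.54 (SE 0.17, adjusted p = 0.020) in RbpjiΔEC mice and was not called in control mice (-0.36, adjusted p = 0.11). The first was lost without CCR2+ RbpjiΔEC 1 (-0.49) or 2 (-0.40), with median centring (-0.47, adjusted p = 0.071), without normalization (-0.18, adjusted p = 0.50) and with the average over probe sets (-0.21, adjusted p = 0.13). The second was called without CCR2+ control 4 (-0.50, adjusted p = 0.029). Its 3 other probe sets disagreed, with RbpjiΔEC differences of -0.18, 0.35 and -0.48.

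The remaining 7 of these enzymes were not called in either genotype. In control mice the differences were 0.36 for Fdft1 (squalene synthase), -0.35 for Sqle (squalene epoxidase), -0.60 for Lss (lanosterol synthase), 0.07 for Tm7sf2 (a sterol C14 reductase), -0.05 for Nsdhl (the C4 decarboxylase), 0.17 for Ebp (the sterol isomerase) and 0.25 for Dhcr7 (7-dehydrocholesterol reductase). In RbpjiΔEC mice they were 0.15, -0.39, -0.23, -0.10, -0.18, 0.17 and -0.28 in the same order. For Lss the probe sets pointed in opposite directions in control mice: the one of highest mean gave -0.60, and the other two gave 0.38 and 0.70 (exact permutation p = 0.029 for the last). No direction is therefore given for Lss. The probe sets of Fdft1 disagreed as well, with 0.15 for the chosen one and -0.60 for another in RbpjiΔEC mice. Ebp was called with median centring in control mice, at 0.68 (adjusted p = 0.015), and without normalization at 0.73 and 0.83 in control and RbpjiΔEC mice. Fdft1 was called without normalization in control mice, at 0.60 (adjusted p = 0.036), and Dhcr7 without CCR2+ control 2, at 0.42 (adjusted p = 0.032).

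Of the 5 regulators, Insig1 was higher and Srebf2 and Scap were lower in the CCR2+ arrays of both genotypes. Insig1, the sterol-regulated protein that retains SCAP, read 10.94, 11.36, 11.28 and 11.50 in the CCR2+ control arrays and 10.11, 9.52, 9.33 and 10.18 in the CCR2- control arrays. The lowest of the first group was above the highest of the second. The difference was 1.48 (SE 0.21, adjusted p = 1.9e-05), 2.80-fold, in control mice and 1.46 (SE 0.21, adjusted p = 2.3e-05) in RbpjiΔEC mice. Srebf2, which encodes the SREBP form known for the sterol genes, read 9.76, 9.25, 9.40 and 9.89 against 10.77, 10.61, 10.58 and 10.84 in control mice. It was lower by 1.12 (SE 0.17, adjusted p = 3.7e-05), and by 1.14 (SE 0.17, adjusted p = 3.3e-05) in RbpjiΔEC mice, and its second probe set gave -1.58 and -1.74. Scap read 9.89, 9.60, 9.48 and 9.58 against 10.27, 10.44, 10.39 and 10.29, a difference of -0.71 (SE 0.10, adjusted p = 1.5e-05), and -0.79 (SE 0.10, adjusted p = 4.7e-06) in RbpjiΔEC mice. With median centring Scap gave -0.35 in control mice and was not called (adjusted p = 0.060). Without normalization between arrays it was called in neither genotype, at -0.29 (adjusted p = 0.22) and -0.24 (adjusted p = 0.32).

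Srebf1, which encodes the SREBP forms known for the fatty acid genes, was not called, at 0.22 (95% interval -0.20 to 0.65) in control mice and -0.10 (-0.52 to 0.33) in RbpjiΔEC mice. Insig2, the second INSIG, was not called at 0.19 and 0.30 (adjusted p = 0.21 and 0.052). It was called with median centring, at 0.49 (adjusted p = 0.022) and 0.52 (adjusted p = 0.018), and its 2 other probe sets gave 0.42 and -0.07 in control mice. Stard4, a carrier of sterols between membranes, was at -0.28 (adjusted p = 0.37) and -0.59 (adjusted p = 0.053), and in RbpjiΔEC mice its CCR2+ arrays, at 9.41, 9.01, 9.77 and 9.34, all lay below its CCR2- arrays, at 10.09, 9.92, 9.87 and 9.99. That difference was called under 10 of the 27 alternatives, with an adjusted p of 0.0091 when only the arrays of the comparison were fitted, and was -0.06 (adjusted p = 0.86) without normalization.

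**Figure D2:**
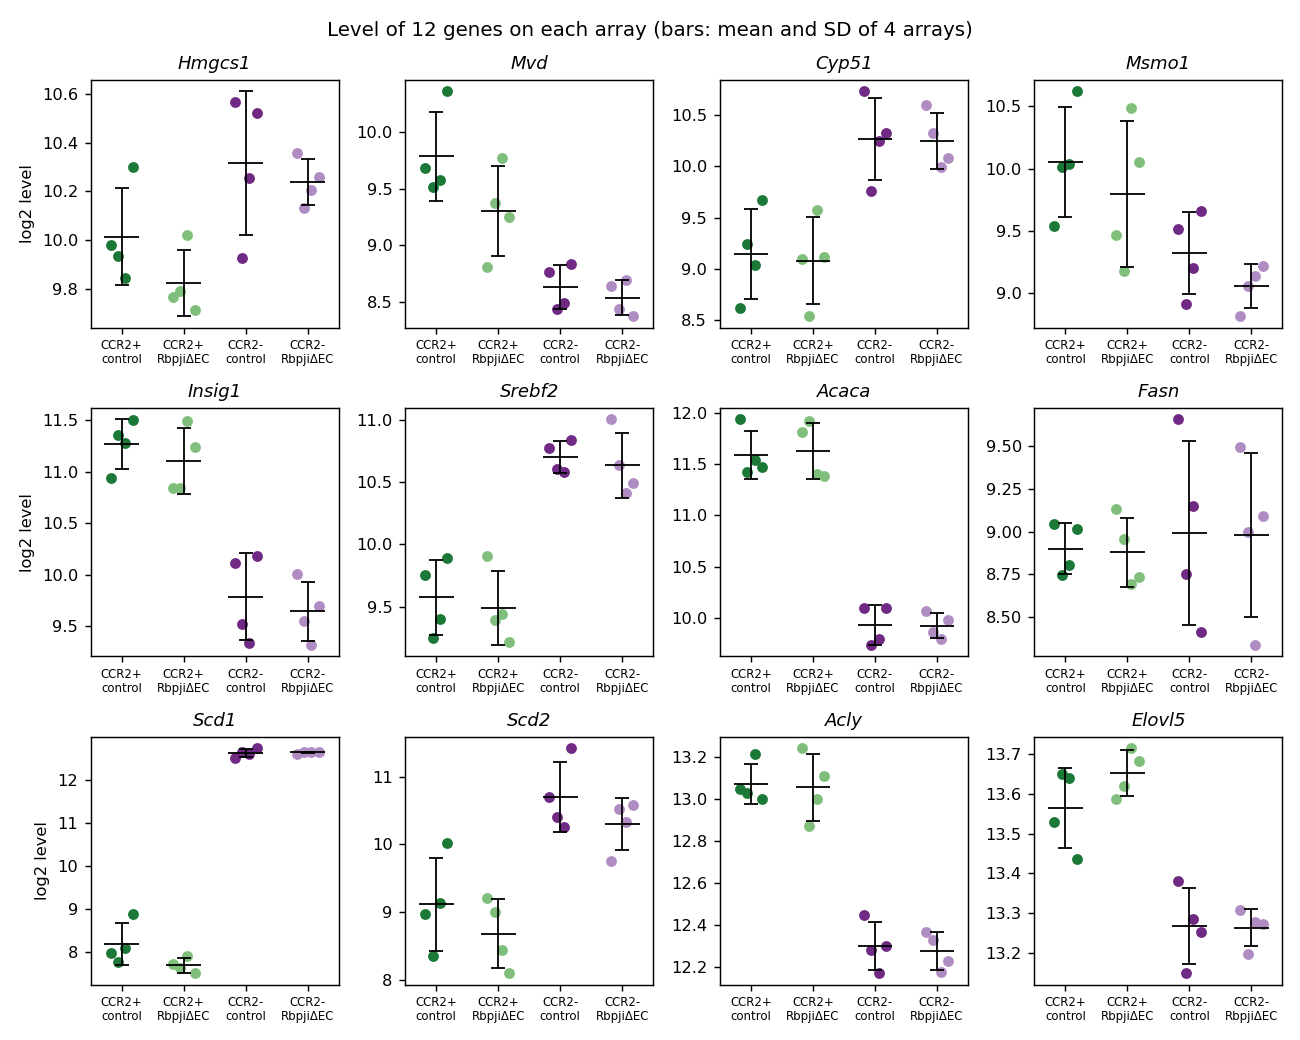
Log2 level (vertical axis, with its own range in each panel) of 12 genes on each of the 16 arrays, grouped by label and genotype (horizontal axis), with points for arrays and bars for the mean and SD of 4 arrays. Scd1, Srebf2 and Cyp51 are low in the CCR2+ arrays and Insig1, Acaca and Acly are high there, and the control and RbpjiΔEC arrays of a label overlap in every panel.

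The 3 enzymes that build palmitate did not move together. Acaca, the acetyl-CoA carboxylase that makes malonyl-CoA, read 11.94, 11.42, 11.55 and 11.47 in the CCR2+ control arrays and 10.10, 9.73, 9.79 and 10.09 in the CCR2- control arrays. The groups lay more than 1 unit apart. The difference was 1.67 (SE 0.14, adjusted p = 6.8e-08), 3.17-fold, in control mice and 1.71 (SE 0.14, adjusted p = 5.0e-08) in RbpjiΔEC mice, and the second probe set gave 1.99 and 2.14. Acly, the citrate lyase that supplies cytosolic acetyl-CoA, was at 13.05, 13.03, 13.21 and 13.00 against 12.45, 12.28, 12.17 and 12.30, a difference of 0.78 (SE 0.09) with adjusted p = 3.4e-06 in control mice and 3.1e-06 in RbpjiΔEC mice, where it was 0.78 too. Of its 5 other probe sets, 4 gave 1.02 or more in both genotypes and 1 gave -0.04 and 0.02. Fasn, the synthase that assembles the chain, showed no difference that could be told from its spread. Its CCR2+ control arrays, at 9.04, 8.74, 8.80 and 9.01, all lay within the range of the CCR2- control arrays, at 9.66, 8.75, 9.15 and 8.41. The Fasn difference was -0.09 (95% interval -0.60 to 0.42) in control mice and -0.10 (-0.61 to 0.41) in RbpjiΔEC mice.

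The desaturases gave the widest gap of the 32 genes. Scd1, a stearoyl-CoA desaturase, read 7.98, 7.77, 8.10 and 8.88 in the CCR2+ control arrays and 12.51, 12.64, 12.60 and 12.74 in the CCR2- control arrays. In RbpjiΔEC mice the CCR2+ arrays were at 7.72, 7.63, 7.92 and 7.51 and the CCR2- arrays at 12.60, 12.65, 12.63 and 12.63. All 8 CCR2+ arrays thus lay more than 3 units below all 8 CCR2- arrays. The difference was -4.44 (SE 0.17, adjusted p = 2.2e-12), 21.7-fold, in control mice and -4.94 (SE 0.17, adjusted p = 5.2e-13), 30.7-fold, in RbpjiΔEC mice. The other Scd1 probe set gave -4.34 and -4.80. Counted from the most negative difference, Scd1 was number 58 of 18194 genes in control mice and number 35 in RbpjiΔEC mice. Its lowest reading, 7.51, was above the trp controls. Most of its CCR2+ readings lay near the mean of the B cell markers, 7.56 to 7.78 over the CCR2+ control arrays. The folds of Scd1 may therefore be lower bounds.

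Scd2, a second stearoyl-CoA desaturase, followed with 8.97, 8.35, 9.13 and 10.02 against 10.70, 10.41, 10.26 and 11.43 in control mice, without overlap. The difference was -1.58 (SE 0.33, adjusted p = 0.0010) there and -1.62 (SE 0.33, adjusted p = 0.00089) in RbpjiΔEC mice. Its 2 other probe sets gave -0.61 and -0.90 in control mice. Fads2, the delta-6 desaturase of polyunsaturated fatty acids, was lower by 0.37 (SE 0.09, adjusted p = 0.0025) and by 0.24 (SE 0.09, adjusted p = 0.040), but its 2 other probe sets lay between -0.13 and -0.03 in both genotypes. Without normalization the control difference was -0.33 and not called (adjusted p = 0.13), and the RbpjiΔEC value was 0.019. With the average over probe sets Fads2 was called in neither genotype. It was at -0.18 (adjusted p = 0.15) in control mice and -0.12 (adjusted p = 0.39) in RbpjiΔEC mice. The RbpjiΔEC call was also lost with median centring (-0.27, adjusted p = 0.071) and when array 1 (-0.18), 2 or 4 of the CCR2+ RbpjiΔEC group, or array 2 or 3 of the CCR2- RbpjiΔEC group, was dropped. The upper terciles of mean level, trend and robust moderation and the separate fit lost it as well. Fads1, the delta-5 desaturase, was not called, at -0.02 and -0.22.

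The 2 elongases differed in direction. Elovl5, which extends polyunsaturated chains, read 13.53, 13.65, 13.64 and 13.44 in the CCR2+ control arrays and 13.38, 13.15, 13.29 and 13.25 in the CCR2- control arrays. The groups did not overlap, though the difference was small, 0.30 (SE 0.08, adjusted p = 0.0044), and 0.39 (SE 0.08, adjusted p = 0.00053) in RbpjiΔEC mice. Elovl6, which extends palmitate to stearate, had a difference of -0.59 (SE 0.14, adjusted p = 0.0023) in RbpjiΔEC mice, with arrays at 7.13, 7.17, 7.32 and 7.15 against 7.62, 7.83, 7.75 and 7.91. Without normalization it was -0.35 and not called (adjusted p = 0.095). In control mice it was at -0.34 and missed the threshold (adjusted p = 0.054), and it was called without CCR2+ control 4 (-0.47) or CCR2- control 3 (-0.44). It was also called with median centring (-0.39, adjusted p = 0.042) and with the average over probe sets (-0.36, adjusted p = 0.013). The upper terciles of mean level, a replicate block and leaving out both control arrays numbered 4 called it too. The other alternatives did not. The probe sets of Elovl5, Acly, Fads2, Hsd17b7 and Mvd that stand for these genes are of types that can bind related transcripts.

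Of the 14 genes called in both genotypes, 9 kept their call and direction under all 27 alternatives tried: Mvd, Insig1, Acly, Acaca and Elovl5 on the higher side and Cyp51, Srebf2, Scd1 and Scd2 on the lower side. The difference between the genotypes in these label differences was tested for each gene as an interaction. None of the 32 was called by limma, and neither was any of the 18194 genes, 0.00% of them. At an unadjusted p under 0.05 stood 1 of the 32, where 3.05% of all genes did. It was Dhcr7 (adjusted p = 1.0), whose label difference was 0.25 in control mice and -0.28 in RbpjiΔEC mice. A call in RbpjiΔEC mice alone, as for Hmgcs1, Hsd17b7 and Elovl6, does not show that the genotypes differ.

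In lists of neighbouring pathways most called genes were higher in the CCR2+ arrays, with the exception of proliferation genes. The counts stand beside 19.4% of all genes higher and 21.4% lower in control mice, and 18.1% and 21.0% in RbpjiΔEC mice. Of 10 measured genes of the LXR receptors and sterol efflux, 7 were higher and 1 lower in control mice and likewise in RbpjiΔEC mice. Rxra, the partner of LXR, was higher by 3.64 (SE 0.17, adjusted p = 2.0e-11) and Apoe, an acceptor of effluxed sterol, by 3.01 (SE 0.18, adjusted p = 4.6e-10) in control mice, and by 3.53 and 3.42 in RbpjiΔEC mice. Mylip, an LXR-induced ubiquitin ligase, was lower by 1.10 (SE 0.33, adjusted p = 0.014) and 1.13. The median difference of this list was 0.74 in control mice, against -0.03 for all genes. Of 10 genes of sterol transport and esterification, 7 were higher and 1 lower in control mice and 6 and 1 in RbpjiΔEC mice. Nceh1, a cholesteryl ester hydrolase, was higher by 1.22 and 1.14 and Stard3, an endosomal sterol carrier, by 0.67 and 0.64, while the sterol carrier Stard5 was lower by 0.54 and 0.59. Of 9 genes of SREBP processing and sterol sensing, 5 were higher and 1 lower in control mice and 4 and 1 in RbpjiΔEC mice. Erlin2 and Erlin1, which bind INSIG and SCAP complexes in the endoplasmic reticulum, were higher by 0.98 and 0.87 in control mice, and Mbtps2, the site-2 protease that frees SREBP, by 1.16 in RbpjiΔEC mice. The lower ones were Ubxn4 at -0.26 in control mice and Faf2 at -0.31 in RbpjiΔEC mice.

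Supply and use of acyl chains followed. Among 20 genes of acyl-CoA and NADPH supply, 11 were higher and 4 lower in control mice and 10 and 4 in RbpjiΔEC mice. Mlxipl, the carbohydrate-responsive factor ChREBP that drives lipogenic genes, stood at 11.58 in the CCR2+ control arrays and 6.79 in the CCR2- control arrays, a difference of 4.80 (SE 0.14, adjusted p = 8.3e-14), and of 4.95 in RbpjiΔEC mice. The CCR2- means, 6.79 and 6.57, lay near the highest trp control reading, 6.72, so these differences may be lower bounds. Idh1, a cytosolic source of NADPH, was higher by 3.30 (SE 0.16, adjusted p = 4.7e-11) and 3.47. The acyl-CoA synthetase Acsl3 was lower by 0.94 and 1.03, and Mcat, of mitochondrial fatty acid synthesis, by 0.36 and 0.40. Among 17 genes of fatty acid oxidation, 12 were higher and 0 lower in control mice and 10 and 1 in RbpjiΔEC mice, with Cpt1a, the mitochondrial gate for acyl chains, at 1.23 and 1.05, and Acaa2, the last enzyme of the cycle, at 1.03 and 0.91. Eci1 was the lower one, at -0.84 in RbpjiΔEC mice. The isoprenoid branch, which leaves the mevalonate pathway for prenyl groups, ubiquinone and dolichol, had 2 of 12 higher (Coq7 at 1.02 and 0.70, Dhdds at 0.47 and 0.37) and 1 lower (Pggt1b at -0.40 and -0.38) in both genotypes. Proliferation genes had 1 of 14 higher (Tyms at 0.73 and 0.44) and 2 and 3 lower (Mcm6 at -0.78 and -0.99, Aurkb at -0.70 and -1.02). These counts move with the scaling too: with median centring and without normalization none of the lists had more genes lower than higher in either genotype, and the lower calls fell to at most 2 in each list. Whether these lists differ from the synthesis genes was not tested.

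**Figure D3:**
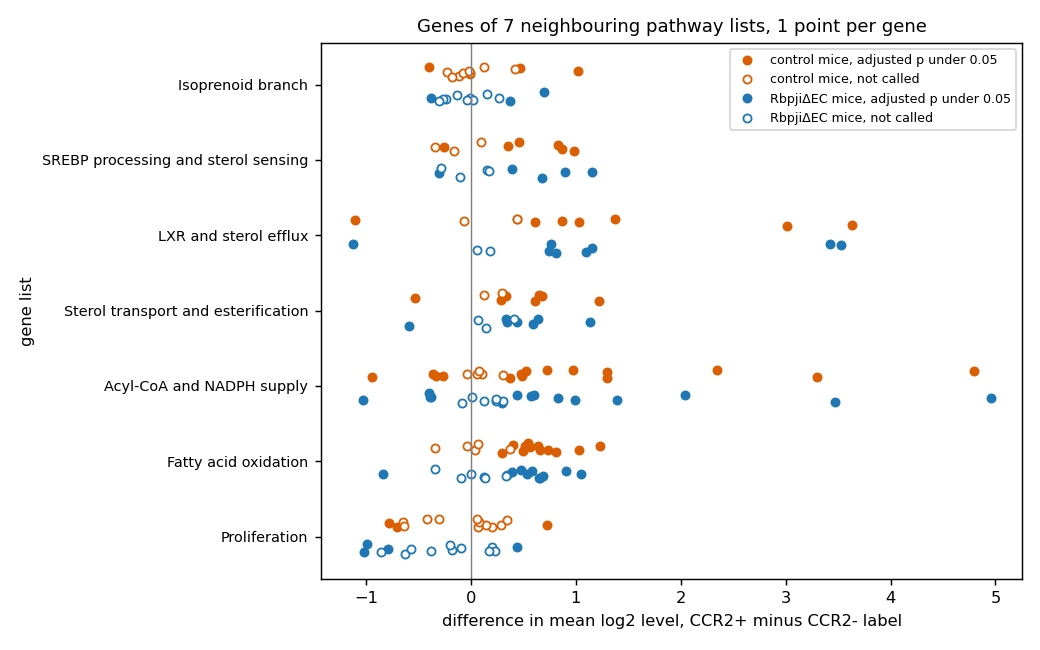
Difference in mean log2 level between arrays labelled CCR2+ and CCR2- (horizontal axis) for each measured gene of 7 neighbouring lists (vertical axis), in control mice (orange) and RbpjiΔEC mice (blue). Filled points have a limma adjusted p under 0.05. The lists of LXR and sterol efflux, sterol transport, acyl-CoA supply and fatty acid oxidation have most filled points to the right of 0, up to 4.95 for Mlxipl.

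The genotype comparison asks whether loss of endothelial Rbpj changed these genes in the sorted cells. None of the 32 was called, in the CCR2+ arrays or in the CCR2- arrays, and none of all 18194 genes was called by limma either (0.00% in both). At an unadjusted p under 0.05 stood 4 of the 32 in the CCR2+ arrays, where 4.56% of all genes did, and 0 of the 32 in the CCR2- arrays, where 2.14% did. No member had its 4 RbpjiΔEC arrays all above or all below its 4 control arrays in either label, against 3.39% of all genes in the CCR2+ arrays and 1.56% in the CCR2- arrays. Under the alternatives, at most 2 of all genes were called in either label, and none of the 32. The half-width of the 95% interval of a member ran from 0.16 to 0.71, with a median of 0.36.

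The 4 genes in the CCR2+ arrays were Dhcr7, Scd1, Mvd and Elovl6. Dhcr7 read 8.77, 8.73, 8.58 and 8.52 in RbpjiΔEC mice and 9.37, 8.61, 9.09 and 9.48 in control mice, a difference of -0.49 (SE 0.17, adjusted p = 0.97). Scd1, with the values given above, differed by -0.49 (SE 0.17, adjusted p = 0.97), Mvd by -0.48 (SE 0.20, adjusted p = 0.97) and Elovl6 by -0.29 (SE 0.14, adjusted p = 0.97). The RbpjiΔEC arrays overlapped the control arrays in each of them, and without CCR2+ control 4 the differences were -0.38, -0.26, -0.29 and -0.17. In the other groups of function the smallest p in the CCR2+ arrays belonged to Srebf1, at -0.41 (adjusted p = 0.97), Stard4, at -0.13, and Acaca, at 0.04. In the CCR2- arrays it belonged to Idi1 at -0.23, Ebp at -0.13, Insig1 at -0.14, Stard4 at 0.18, Acly at -0.02 and Scd2 at -0.40, all with an adjusted p of 1.0. In the CCR2- arrays Scd1 was at 0.01 with a 95% interval from -0.35 to 0.37.

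**Figure D4:**
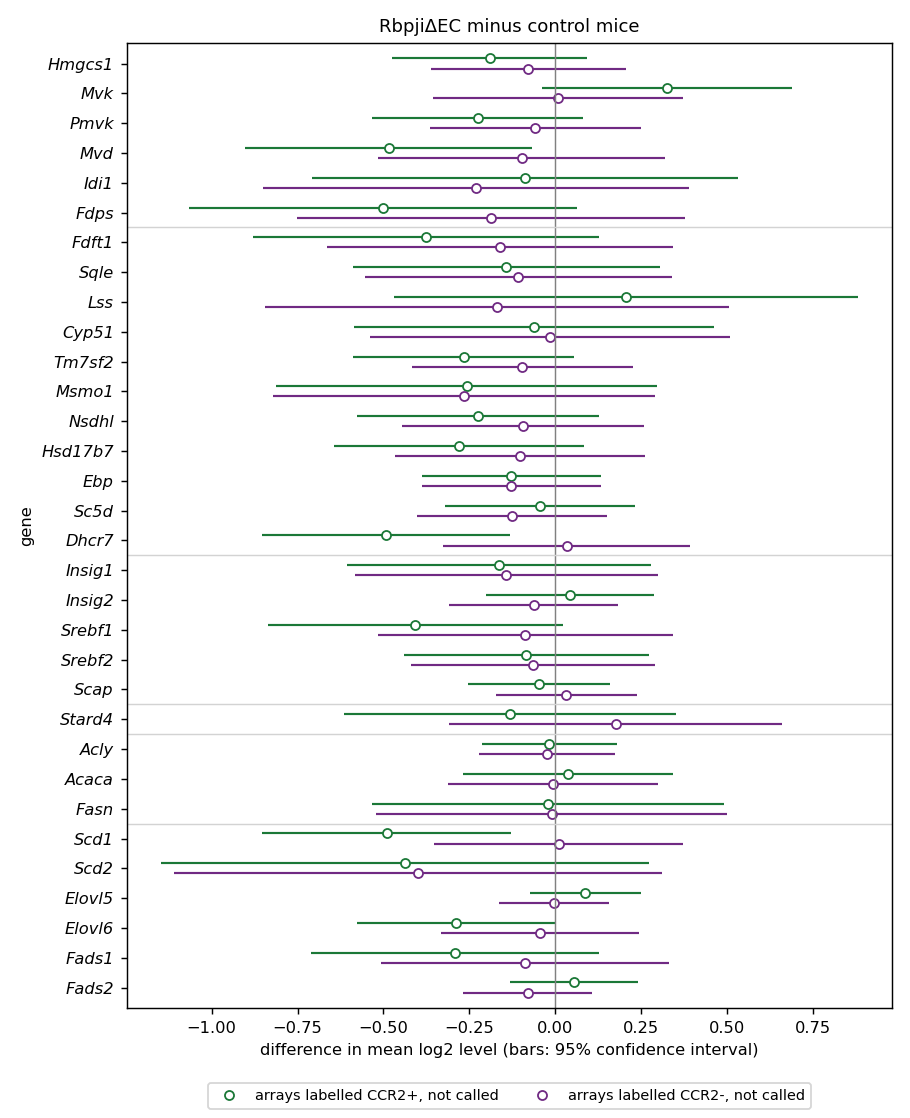
Difference in mean log2 level between RbpjiΔEC and control mice (horizontal axis) for the 32 genes (vertical axis), in the arrays labelled CCR2+ (green) and CCR2- (purple), 4 arrays per group. Points are limma estimates and bars are 95% confidence intervals. All points are open because none was called, and most lie left of 0.

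Most of the estimates were below 0. In the CCR2+ arrays 26 of the 32 differences were negative, with a median of -0.15, and in the CCR2- arrays 27 of the 32, with a median of -0.08, while 52.5% and 50.9% of all genes were negative. Among the 17 sterol enzymes 15 were negative in both. These genes share arrays, so their number is no measure of certainty. Without CCR2+ control 4 the count in the CCR2+ arrays fell to 22 of 32 and the median to -0.07, and without CCR2- control 4 the count in the CCR2- arrays fell to 22 of 32 and the median to -0.03. Neutrophil markers were not called either, but all 8 measured markers had a negative difference in both labels, and their mean level ran from 7.46 to 8.73 in the CCR2+ control arrays against 7.47 to 7.50 in the CCR2+ RbpjiΔEC arrays, and from 6.86 to 9.17 against 6.91 to 7.13 in the CCR2- arrays. The part of neutrophil RNA in the genotype differences was not tested. In the CCR2- arrays all 10 macrophage markers had a negative difference too, with a median of -0.26. On the 2 control arrays numbered 4, where the sterol enzymes were high, the neutrophil mean was the lowest of its group, at deviations of -0.09 and -0.70 from the 16-array mean. It was the highest on the 2 control arrays numbered 2, at 1.18 (CCR2+) and 1.61 (CCR2-). There the sterol mean was the lowest of its group, at -0.15 on each.

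CCR2+ control 4 stood apart in sterol synthesis. It was the highest of its group in 14 of the 17 sterol enzymes, where 30.5% of all genes were highest on that array, and the mean of the 17 lay 0.50 above the 16-array mean, against -0.15 to -0.02 in the other 3 CCR2+ control arrays. Fdps was the clearest case, at 9.26 on this array and 7.89, 7.61 and 7.87 on the other three. The 17 enzymes exceeded the mean of the other 3 arrays by a median of 0.57, the 9 fatty acid enzymes by 0.15. Proliferation genes moved with them: all 14 were highest on the same array, and their mean deviation was 0.65 there against -0.37 to -0.15 on the others. CCR2- control 4 had a weaker form of the same picture, highest of its group in 10 of 17 sterol enzymes and 10 of 14 proliferation genes. Of all genes, 31.5% were highest on that array. The mean deviations of the sterol enzymes and proliferation genes there were 0.26 and 0.38. The 2 lists did not always go together. CCR2- RbpjiΔEC 4 was high in proliferation genes (0.40) and not in sterol enzymes (-0.07). CCR2- control 1 was high in sterol enzymes (0.25) and not in proliferation genes (-0.07). CCR2+ RbpjiΔEC 3 had the highest sterol mean of its group (0.09) and the lowest proliferation mean of the 16 arrays (-0.54). The lowest sterol mean, -0.34, was that of CCR2+ RbpjiΔEC 2. The mean of the tumour and mesothelial markers was the highest of its group on both control arrays numbered 4. It was 0.19 on CCR2+ control 4, against -0.34 to -0.02 on the others, and 0.58 on CCR2- control 4, against -0.34 to 0.32. The T and NK cell mean and the endothelial and fibroblast mean were highest there too. The large peritoneal macrophage mean was lowest on CCR2+ control 4 (2.42) but highest on CCR2- control 4 (-2.16). The parts of cell division and of cell types in the sterol enzyme levels were not tested. Leaving out both control arrays numbered 4 was 1 of the 27 alternatives by which the 9 genes named above were selected.

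**Figure D5:**
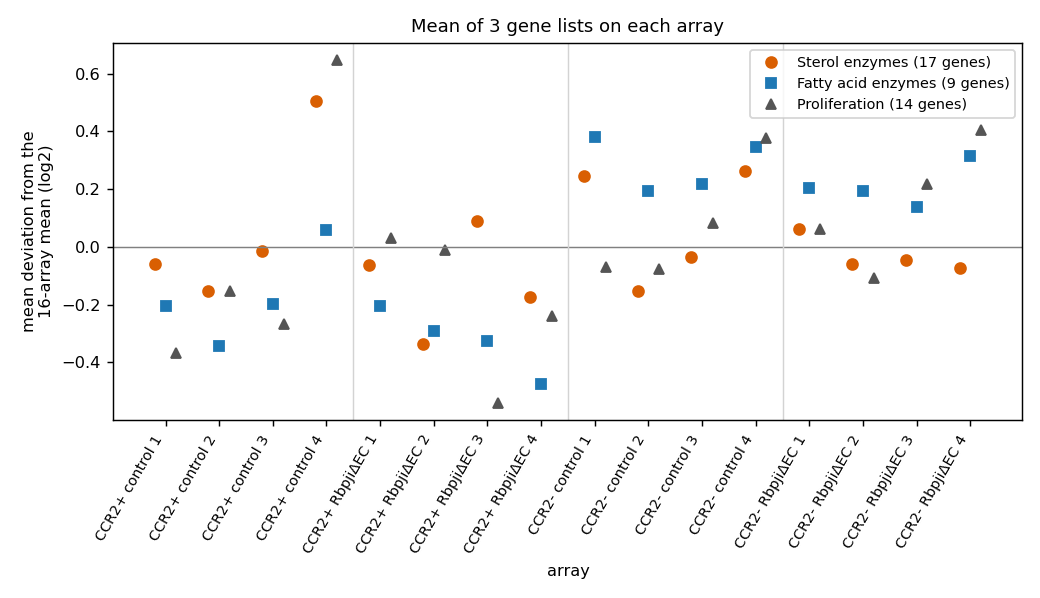
Mean deviation from the 16-array mean in log2 units (vertical axis) on each array (horizontal axis) for 17 sterol enzymes (orange circles), 9 fatty acid enzymes (blue squares) and 14 proliferation genes (grey triangles). CCR2+ control 4 is highest in sterol enzymes and proliferation genes. The mean of the fatty acid enzymes is below 0 in 7 of the 8 CCR2+ arrays and above 0 in all 8 CCR2- arrays. That mean joins genes of opposite direction. In the CCR2+ control arrays fatty acid synthesis was at 0.40, while desaturation and elongation, which include Scd1 and Scd2, were at -0.46. In the CCR2- control arrays they were at -0.39 and 0.62.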

How the data were processed

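RNA from 16 samples of sorted peritoneal cells, labelled as macrophages, was measured on Affymetrix mouse arrays of 45101 probe sets, 4 arrays in each of 4 groups. The deposited values are linear intensities, 1 per probe set and array, per the file headers; the summarisation, background correction and scaling by the authors are not given in the sources used here. The intensities were converted to log2 and quantile normalized over the 16 arrays. Each gene took the probe set of highest mean among those with 1 symbol (34958 probe sets, 18194 genes); 932 probe sets with several symbols and 9211 unlisted ones were left out. A linear model with a mean for each group was fitted to all 16 arrays (limma 3.58.1, R 4.3.3), and differences were called, two-sided, at a Benjamini-Hochberg adjusted p under 0.05 over all genes. The fit was tested on simulated data first. Other probe sets of a gene were compared by an exact permutation test.

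The 33 genes, the pathway lists and the marker lists were chosen with earlier results of these data known. All members are named. Of each pathway list and label comparison up to 2 called genes per direction with the largest fold are named, in the genotype comparisons the gene of smallest p per member list, and of each marker list up to 2 called genes. Alternatives were median centring, no normalization, an offset of 50, the upper terciles of mean level, the mean of all probe sets, trend and robust moderation, array weights, separate fits, a replicate block and each array left out; 2 more were added after the values were seen. The number of arrays limits the precision. Promoter sequences are from RefSeq (GRCm38.p6).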

Additional observations from a re-analysis of the deposited data

Results flagged for a closer look

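In 7 of 128 groups of 4 arrays, 1 array lay far from the other three by Dixon's test, 5 of them high and 2 low; chance alone gives about 1 in 20. Genes of sterol synthesis were high on CCR2+ control 4. Fdps was at 9.26 there, with the next array at 7.89, Tm7sf2 was at 8.65, with the next at 8.01, and Hsd17b7 was at 8.85, with the next at 8.34. Fdps was high on CCR2+ RbpjiΔEC 3, at 7.87 with the next array at 7.60. Nsdhl was high on CCR2- RbpjiΔEC 1, at 9.75 with the next at 9.59, and Hsd17b7 was low on the same array, at 8.57 with the next at 8.74. Scap was low on CCR2+ RbpjiΔEC 4, at 9.48 with the next at 9.61.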

How the results depend on the processing

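The number of genes called lower in the CCR2+ arrays moved most without normalization between arrays, to 4 in control mice and 4 in RbpjiΔEC mice. In RbpjiΔEC mice Hmgcs1 (0.14) and Fads2 (0.019) then changed sign, without a call; that setting moved the median of all genes by 0.26 there, and the cause of the changes was not tested beyond this. With 1 array left out, 13 to 16 genes were called in control mice and 14 to 18 in RbpjiΔEC mice. Under the other alternatives 12 to 16 and 14 to 20 were called, and no member was called in the genotype comparisons under the 27 alternatives or in the interaction under the 26 run for it (a fit of only the arrays compared does not apply there). With a replicate block 16 were called in control mice and 19 in RbpjiΔEC mice. The replicate numbers were not shown to pair the arrays: same-numbered deviations correlated between -0.03 and 0.40 across labels within a genotype and between -0.38 and 0.19 across genotypes. The block gave each number 1 effect over both genotypes, so a pairing of the labels within a genotype was not tested. Over members and alternatives in control mice, 14 values lost their call, 17 gained one and 833 kept their side of the threshold; in RbpjiΔEC mice 29 lost it, the 2 that changed sign included, 27 gained one and 808 kept their side.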
